A study of Drosophila melanogaster with 31 samples.

Results

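Wing imaginal discs carrying clones mutant for warts (wts) were compared between larvae on day 9 and larvae on day 5. The members are the 6 wts RNA libraries of the series, 3 from each age, chosen by their labels out of 18 RNA-seq libraries and 31 samples in all. The wts discs were y w ubxflp over y w on one chromosome, and the other chromosome pair was FRT82B M(3) ubiGFP over FRT82B wts149. Control discs, measured on day 5 only among the samples used here, carried FRT82B without a mutation in its place. A further pair of groups, on day 5 and day 9, carried FRT82B cicQ474X wts149 and is called cic wts below. Day 5 discs with FRT82B cicQ474X alone made up the last group, which entered the shared estimate of the spread only. All of these animals shared the ubxflp source of recombinase, the M(3) ubiGFP chromosome and growth on normal food at 25 degrees, and all were 3rd instar larvae. Each library was made from the hand-dissected discs of 12 to 35 larvae. The discs are mosaics made by mitotic recombination, so each library mixes mutant cells with cells of other genotypes, and the labels do not give the share of mutant cells. The ages could be compared within wts and within cic wts discs, and the change with age between these genotypes. No value for a control disc on day 9 was analysed here.

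Warts is the kinase at the end of the Hippo pathway. It phosphorylates the coactivator Yorkie and keeps it out of the nucleus, where Yorkie would act with the DNA-binding protein Scalloped on growth and survival genes, and loss of wts gives discs that overgrow. In normal development the steroid hormone ecdysone, acting through its receptor EcR and the partner usp, ends larval growth, starts eversion of the disc and starts secretion of cuticle, and an abnormal disc can delay this step through the peptide Ilp8.

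The 6 wts libraries held 14201662 to 20899989 counts each, and the lowest was day 5 replicate 2. In a principal component analysis of these libraries, the first component held 47.4% of the variance and separated the ages, with the day 5 libraries at -39.6 to -15.7 and the day 9 libraries at 25.0 to 26.6. Wing disc identity was checked with selector genes of the pouch and hinge. Their summed level was 4470 to 4840 CPM (a gene's share of the library in parts per 1000000 counts, after TMM scaling) on day 5 and 4640 to 5370 CPM on day 9, so the wing markers were abundant in each library. Individual libraries stood apart. Day 5 replicate 1 held the eye disc gene toy at 9.01 CPM, against 0.283 and 0.155 CPM in the other day 5 libraries. Day 9 replicate 2 held fat body genes at a sum of 302 CPM, against 15.5 and 40.2 CPM in the other day 9 libraries. Nothing in the labels says whether the replicates of a group came from separate cultures, so the p-values measure the spread between libraries. This spread was estimated over all RNA libraries of the series, the other genotypes included, and not over the wts libraries alone.

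With edgeR's quasi-likelihood test and Benjamini-Hochberg adjustment over 9004 genes, 620 genes differed between day 9 and day 5 at an adjusted p under 0.05, which is 6.89% of the genes tested. Of these, 377 rose (4.19%) and 243 fell (2.7%). The rises were larger, with a median log2 fold change of 0.74 against -0.38 for the falls, and 145 rises but 45 falls exceeded 2-fold. Over all genes tested the median log2 fold change was -0.02. The count depended on each library: it was 493 without day 5 replicate 1, 191 without day 5 replicate 2, 122 without day 5 replicate 3, 332 without day 9 replicate 1, 295 without day 9 replicate 2 and 235 without day 9 replicate 3. A core of 102 genes, 69 rises and 33 falls, was past the threshold in all 6 of these fits. Without the library with eye disc genes and the library with fat body genes together, 184 genes passed.

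**Figure D1:**
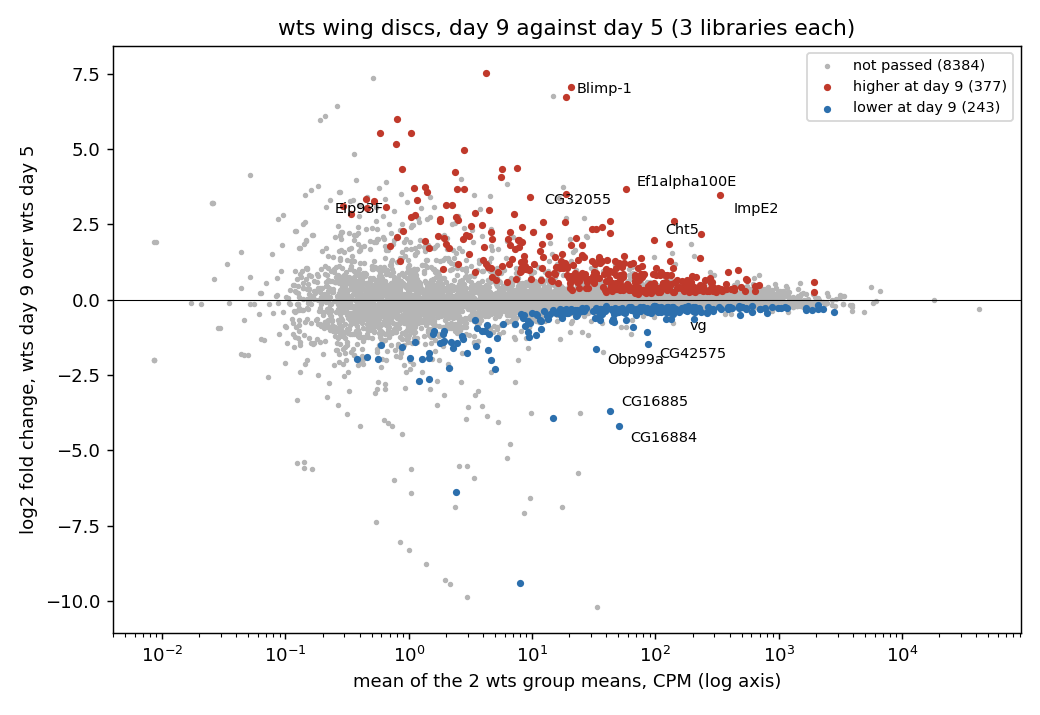
Mean level in CPM (log axis) against the log2 fold change of wts discs on day 9 over day 5, one point per gene tested. Red points are the 377 genes that rose and blue points the 243 that fell, and most falls lie close to the zero line, with a median of -0.38 against 0.74 for the rises.

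The targeted genes came first. The level of wts was 214, 210 and 185 CPM on day 5 and 273, 258 and 278 CPM on day 9, and the control libraries held 94.96 to 106 CPM. Each day 9 library was above each day 5 library, and wts rose by a log2 fold change of 0.41 ± 0.08 (SE; adjusted p = 0.0101, edgeR). Its call was lost without day 5 replicate 3 (adjusted p = 0.0616). The counts are per gene and do not tell the wts alleles apart, so the level does not check the mutation. The repressor gene capicua (cic) was at 694, 609 and 637 CPM on day 5 and 686, 748 and 705 CPM on day 9, with overlapping groups and a log2 fold change of 0.14 ± 0.12 (adjusted p = 0.479).

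Of 29 ecdysone response genes tested of 30, 10 rose, none fell and 19 did not pass, where 4.19% of all genes rose, and the median log2 fold change of the list was 0.778 against -0.02 over all genes. Without day 5 replicate 2 or 3 the rises numbered 1, and without day 5 replicate 1 they numbered 5. Without day 9 replicate 1 or 3 there were 3, and without day 9 replicate 2 there were 8. With the eye disc and fat body libraries left out together, 3 were past the threshold. The rises numbered 6 with robust estimation, 12 with the replicate block, and 15 both in DESeq2 and with the compared libraries alone. The receptor genes did not pass. EcR was at 383, 320 and 426 CPM on day 5 and 342, 350 and 310 CPM on day 9 (-0.17 ± 0.14, adjusted p = 0.468), and usp had a log2 fold change of 0.04 ± 0.08 (adjusted p = 0.827). The competence factor gene ftz-f1 gave -0.21 ± 0.24 (adjusted p = 0.636). Fewer cells of a type and less RNA per cell cannot be told apart in these bulk libraries.

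Among the called members the largest rises were those of Blimp-1 and Eip78C. Blimp-1, a repressor that times the response to the hormone pulse, was at 0.469, 0.496 and 0.104 CPM on day 5 and at 61.4, 6.29 and 44.5 CPM on day 9, with day 9 replicate 2 far below the other day 9 libraries (6.74 ± 1.86, adjusted p = 0.0411). The nuclear receptor gene Eip78C went from 0.781, 0.709 and 0.622 CPM to 24.3, 3.64 and 15.7 CPM, again lowest in replicate 2 (4.36 ± 1.17, adjusted p = 0.0368). Both genes were past the threshold without day 9 replicate 2, and neither was without any other single wts library, where the adjusted p reached 0.145 for Blimp-1 and 0.129 for Eip78C. The day 5 control was itself uneven. Blimp-1 stood at 110, 0.577 and 104 CPM in the 3 control libraries, so control replicate 2 lay at the day 5 wts level. Eip78C stood at 46.2, 5.64 and 62.0 CPM there, with a mean of 37.96 CPM against 14.5 CPM in wts on day 9. Eip93F, which sets the adult stage identity of tissues, was at 0.416, 0.213 and 0.155 CPM on day 5 and 1.54, 2.19 and 1.73 CPM on day 9. The Eip93F groups did not overlap and its call held without each library in turn (2.76 ± 0.49, adjusted p = 0.0055), although its level stayed below 3 CPM in every wts library.

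The other transcription factor genes were already abundant on day 5 and rose by less. The zinc finger gene broad (br), needed for the start of metamorphosis, was at 1826, 1593 and 1253 CPM on day 5 and at 2445, 2221 and 2283 CPM on day 9 (0.57 ± 0.15, adjusted p = 0.0369). Eip75B rose by 0.78 ± 0.18 (adjusted p = 0.0192), Eip74EF by 0.42 ± 0.09 (adjusted p = 0.0167) and Hr39 by 0.45 ± 0.13 (adjusted p = 0.0473). In each of these genes every day 9 library was above every day 5 library. The calls of Eip75B and Eip74EF were lost without day 5 replicate 2 or 3, and that of Eip75B also without day 9 replicate 1 or 3, with adjusted p up to 0.0943. The call of br held without day 5 replicate 1 and was lost without each other library (up to 0.151), and the call of Hr39 was lost without each of the 6 (up to 0.165).

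Secreted and cell surface products that act in disc eversion rose too. ImpE2, an ecdysone-inducible gene of the everting disc, was at 73.6, 68.0 and 22.3 CPM on day 5 and at 946, 248 and 630 CPM on day 9. Its control libraries held 2206, 452 and 2678 CPM. Day 9 replicate 2 lay below all 3 of them, and the other day 9 libraries lay below control replicates 1 and 3. The ImpE2 means were 1779 CPM in the day 5 control, 54.6 CPM in wts on day 5 and 608 CPM in wts on day 9. The log2 fold change of ImpE2 was 3.48 ± 0.92 (adjusted p = 0.0358), past the threshold without day 9 replicate 2 but not without any other library (up to 0.136). ImpE3 went from 3.90, 3.40 and 1.97 CPM to 45.6, 23.7 and 34.9 CPM without overlap (3.49 ± 0.79, adjusted p = 0.0187), and its call was lost without day 5 replicate 2 or 3 (up to 0.0927). In the day 5 control ImpE3 was at 82.5, 9.95 and 85.5 CPM. ImpE1, at 49.5, 45.4 and 24.9 CPM and then 254, 65.5 and 149 CPM, did not overlap and missed the threshold (1.97 ± 0.58, adjusted p = 0.0535). Sb, the serine protease Stubble of leg and wing eversion, rose by 1.05 ± 0.30 (adjusted p = 0.0493), a call lost without each library in turn (up to 0.173).

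In this list, day 9 replicate 1 was highest and replicate 2 lowest, with replicate 3 between them, in 13 of the 29 members tested (44.8%) and in 8 of the 10 that rose. The same order was found in 30.2% of all 377 rises and in 23.5% of all genes tested. Day 9 replicate 2 is also the library with the highest fat body sum, and the part of one in the other was not tested.

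**Figure D2:**
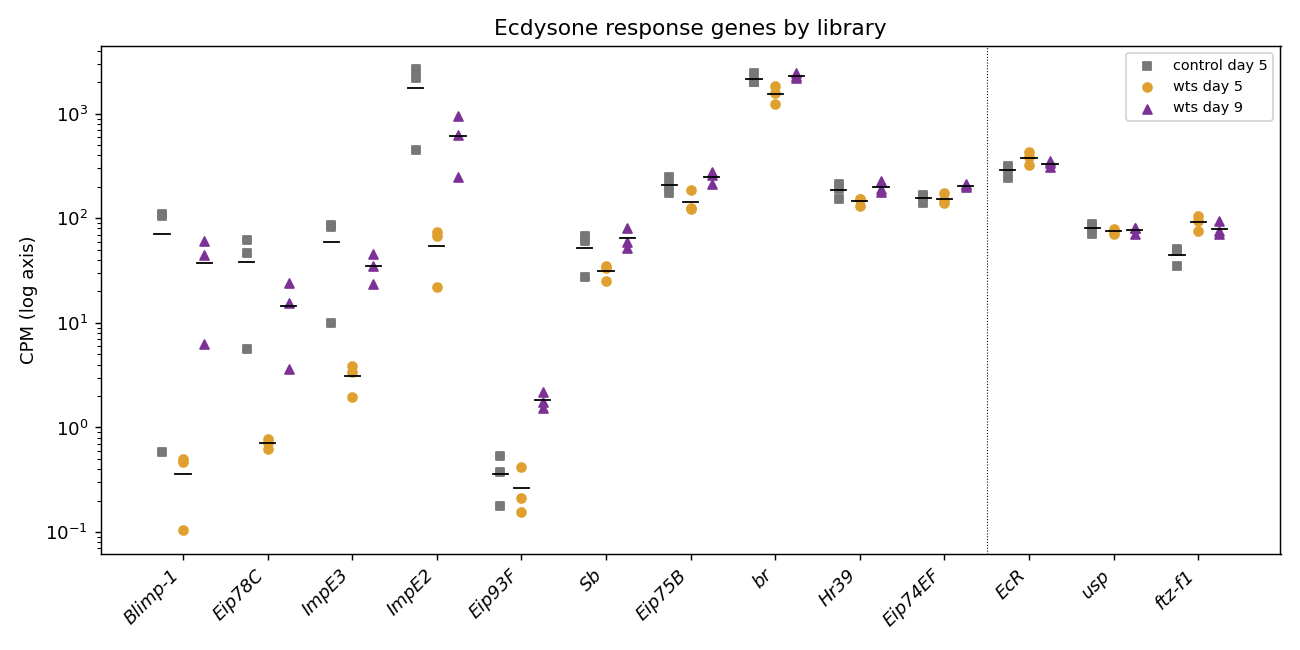
CPM (log axis) of the 10 ecdysone response genes that rose, left of the dotted line, and of EcR, usp and ftz-f1 on the right. Each point is a library of the control day 5, wts day 5 or wts day 9 group and each bar a group mean. Blimp-1 and ImpE2 show the low day 9 replicate 2 (6.29 and 248 CPM) and the low control replicate 2 (0.577 and 452 CPM).

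The list of temporal identity and juvenile hormone genes shares Eip93F and br with the ecdysone list. Of its 13 members tested, 3 rose (4.19% of all genes rose) and none fell, and the median was 0.035. The rises numbered 1 without day 5 replicate 2 or 3 or day 9 replicate 2 or 3, and 2 without day 9 replicate 1. The other was Kr-h1, the juvenile hormone effector, at 59.2, 57.0 and 57.8 CPM on day 5 and 71.5, 82.9 and 79.1 CPM on day 9 (0.43 ± 0.10, adjusted p = 0.0226). The Kr-h1 groups were apart, and the call was lost without replicate 2 or 3 of either age (up to 0.0871). The early-stage gene chinmo was at 357, 333 and 429 CPM and then 346, 378 and 289 CPM, with overlap (-0.14 ± 0.35, adjusted p = 0.832).

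Products of the cuticle protein genes form the outer covering that the disc epithelium secretes. Of 49 tested of 123 in the table, 10 rose and 1 fell, against 4.19% and 2.7% of all genes, and the median was 0.226. Cpr65Ec was at 6.61, 4.61 and 4.04 CPM on day 5 and 21.9, 20.6 and 23.8 CPM on day 9 (2.12 ± 0.41, adjusted p = 0.00818). Cpr64Ac went from 0.104, 0.425 and 0.207 CPM to 3.08, 6.97 and 3.47 CPM (4.23 ± 0.88, adjusted p = 0.0123). Neither gene's groups overlapped, and both calls were lost without day 5 replicate 3 (0.0564 for Cpr65Ec and 0.067 for Cpr64Ac). Cpr49Ac, at 46.4, 44.99 and 30.2 CPM and then 359, 137 and 238 CPM, showed the low day 9 replicate 2 of the ecdysone genes (2.60 ± 0.66, adjusted p = 0.031), and its call held without that library and was lost without any other (up to 0.122). Cpr31A rose by 2.27 ± 0.37 (adjusted p = 0.00305) and held without each library. The 1 fall, Cpr11B, rested on day 5 replicate 2, where it was at 47.5 CPM, while the other day 5 libraries held 0.208 and 0.0518 CPM and the groups overlapped. Without that library its adjusted p was 0.635. Cuticle genes occur in clusters of similar copies, so reads may be shared among them. With day 5 replicate 3 left out, 1 of the list rose.

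Enzymes and proteins of the apical matrix moved both ways. Cht5, a chitinase of the moulting cuticle, was at 49.2, 32.7 and 36.9 CPM on day 5 and at 142, 168 and 160 CPM on day 9. All day 9 libraries exceeded all day 5 libraries (1.98 ± 0.32, adjusted p = 0.0029). The zona pellucida gene trynity (tyn) fell from 80.9, 79.3 and 97.9 CPM to 59.4, 37.2 and 39.9 CPM, by 0.92 ± 0.15 on the log2 scale (adjusted p = 0.0031). Both calls held without each library. These 2 were the members called among 20 chitin and apical matrix genes tested (10%, against 6.89% of all genes). With the compared libraries alone 5 rose and 2 fell.

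The largest single changes outside these lists included genes with little annotation. Ef1alpha100E, a paralog of translation elongation factor 1 alpha that shares sequence with its sister gene, was at 12.6, 6.17 and 6.63 CPM on day 5 and at 102, 114 and 108 CPM on day 9 (3.66 ± 0.56, adjusted p = 0.00195). The gene lies at chr3R:31738468-31743306 in dm6. CG32055 went from 2.34, 1.06 and 1.503 CPM to 20.4, 18.4 and 14.1 CPM (3.41 ± 0.44, adjusted p = 0.00071). Both were the tightest of the 12 largest rises, and both held without each library.

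The remaining large rises were less even between libraries. TotA, a stress-induced Turandot peptide, was at 0, 0.142 and 0 CPM on day 5 and at 0.266, 23.6 and 1.35 CPM on day 9, and nearly all of its level came from day 9 replicate 2. Its adjusted p of 0.0435 became 0.255 at most when single libraries were left out, and it stayed past the threshold in 1 of the 6 fits, without day 9 replicate 1. Spn100A, a serine protease inhibitor gene, was at 0.469, 0.283 and 0.155 CPM and then 74.7, 12.3 and 37.2 CPM, with the replicate order of the ecdysone genes (7.06 ± 1.79, adjusted p = 0.0304), and its call was lost without any library but day 9 replicate 2 (up to 0.117). CG2444, at 7.81, 2.03 and 6.59 CPM on day 9, behaved the same in these fits (up to 0.101). The sulfotransferase gene St2 rose by 4.33 ± 0.92 (adjusted p = 0.0134), and its call was lost without day 5 replicate 2 or 3 (up to 0.0779). Cpr100A rose by 3.68 ± 0.90 (adjusted p = 0.0256), and its call was lost without day 5 replicate 1 or 3 or day 9 replicate 2 or 3 (up to 0.0826). The day 5 control means of Spn100A (78.4 CPM) and St2 (21.0 CPM) lay above their day 9 wts means (41.4 and 10.8 CPM). Those of TotA (0.224 CPM), CG2444 (5.44 CPM) and Cpr100A (0.0981 CPM) lay below theirs (8.39, 5.48 and 5.16 CPM).

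Among the genes whose calls held without each library, the neighbouring genes CG16884 and CG16885 had the largest falls named here. CG16884 (chr2L:13944756-13947476, dm6) was at 57.6, 152 and 80.3 CPM on day 5 and at 8.77, 3.12 and 4.00 CPM on day 9 (-4.19 ± 0.57, adjusted p = 0.00116). CG16885 (chr2L:13932559-13934692) went from 50.6, 125 and 65.2 CPM to 8.499, 5.05 and 4.96 CPM (-3.70 ± 0.51, adjusted p = 0.00127). In both genes day 5 replicate 2 was highest and no day 9 library reached the day 5 range. CG42575, at 114, 134 and 136 CPM and then 49.2, 46.6 and 43.2 CPM, fell by 1.47 ± 0.16 (adjusted p = 0.000299). The odorant-binding protein gene Obp99a fell from 52.99, 50.7 and 46.5 CPM to 21.0, 10.3 and 16.4 CPM (-1.66 ± 0.27, adjusted p = 0.0029). CG31262, GstE8, nrm and ppk29 also fell and, like the 4 above, held without each library, with adjusted p up to 0.0169 in those fits. GstE8 belongs to a cluster of similar glutathione S-transferase genes, among which GstE6 and GstE7 were called too, with calls that held only without day 5 replicate 1 (up to 0.125 and 0.154 otherwise). Of 26 glutathione S-transferase genes tested, these 3 fell and GstT3 and GstO3 rose, against 2.7% and 4.19% of all genes. The call of GstT3 (0.56 ± 0.13, adjusted p = 0.0185) was lost without any day 5 library or day 9 replicate 1 (up to 0.0642), and that of GstO3 (0.48 ± 0.12, adjusted p = 0.0259) held only without day 9 replicate 2 (up to 0.109). CG15556 and ea passed and lost their calls without replicate 2 or 3 of either age (up to 0.142 and 0.12).

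Of 20 Yorkie and Scalloped targets tested, 2 rose, 1 fell and 17 did not pass, with a median of 0.163 and with 3 members called, 15% of the list against 6.89% of all genes. The pouch selector vestigial (vg), a partner of Scalloped, was at 177, 185 and 173 CPM on day 5 and at 143, 131 and 123 CPM on day 9. The groups were apart, vg fell by 0.43 ± 0.08 (adjusted p = 0.0061), and the call held without each library. The insulin receptor gene InR rose from 141, 124 and 125 CPM to 189, 208 and 196 CPM (0.60 ± 0.13, adjusted p = 0.0139) and lost its call without day 5 replicate 2 or 3 (up to 0.0673). The glypican gene dlp rose by 0.37 ± 0.09 (adjusted p = 0.0278) and lost its call without replicate 1 or 3 of either age (up to 0.108). The Hippo component ex, itself a target, was at 2381, 2423 and 2076 CPM and then 2519, 2783 and 2659 CPM, apart by a small step that did not pass (0.21 ± 0.10, adjusted p = 0.198). The apoptosis inhibitor gene Diap1 gave 0.21 ± 0.06 (adjusted p = 0.059).

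Ilp8, the relaxin-like peptide of the damaged or overgrown disc, was at 51.7, 45.5 and 49.9 CPM on day 5 and at 75.8, 56.3 and 56.6 CPM on day 9. It was at 0.280 to 1.86 CPM in control day 5 discs. The wts groups did not overlap, but the change with age did not pass (0.36 ± 0.35, adjusted p = 0.563). Of 22 Hippo pathway components tested, wts and Rassf rose and none fell (9.09% called, against 6.89% of all genes). Rassf, an antagonist of Hippo, rose from 101, 92.9 and 94.6 CPM to 120, 133 and 130 CPM (0.41 ± 0.08, adjusted p = 0.00803) and held without each library.

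Of only 4 PDGF/VEGF-like genes, the ligand genes Pvf1 and Pvf3 rose (50% called, against 6.89% of all genes). Pvf1 was at 5.15, 5.74 and 5.75 CPM on day 5 and 12.9, 8.12 and 10.6 CPM on day 9 (0.93 ± 0.17, adjusted p = 0.00715), and held without each library. Pvf3 rose by 0.85 ± 0.22 (adjusted p = 0.0318), a call lost without any library but day 9 replicate 2 (up to 0.119). Of 16 EGFR ligand, receptor and cascade genes (1 called, 6.25% against 6.89% of all genes), the ligand gene Krn rose (0.54 ± 0.13, adjusted p = 0.0291), a call lost without day 5 replicate 2 or 3 or day 9 replicate 1 or 3 (up to 0.119). Among 15 targets of Ras and Capicua (1 called, 6.67%), edl rose (0.38 ± 0.10, adjusted p = 0.0331) and its call held only without day 5 replicate 1 (up to 0.135 otherwise). The shares of the EGFR list and of the Ras and Capicua targets are near that over all genes. The mitotic phosphatase gene stg, a target of several pathways, was at 360, 1097 and 852 CPM and then 2071, 566 and 698 CPM, with day 9 replicate 1 far above the rest and the groups overlapping (0.53 ± 0.40, adjusted p = 0.441). Of 12 JAK/STAT genes tested, 0 passed in edgeR, in DESeq2 or with the compared libraries alone.

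Patterning genes of the Dpp, Wnt, Hedgehog and Notch lists had 2, 2, 1 and 4 calls among 23, 23, 13 and 25 members, which is 8.7%, 8.7%, 7.69% and 16% against 6.89% of all genes. The Wnt list calls, Wnt4 and the glypican gene dlp, numbered 0 without replicate 1 or 3 of either age. The ligand gene Wnt4 rose by 1.14 ± 0.29 (adjusted p = 0.0318), a call that held only without day 9 replicate 2 (up to 0.119 otherwise). The activin-like ligand gene daw was at 0.521, 0.567 and 0.777 CPM on day 5 and 3.88, 11.7 and 16.2 CPM on day 9 (4.07 ± 0.89, adjusted p = 0.0161), and its call was lost without day 5 replicate 2 or 3 or day 9 replicate 3 (up to 0.067). The BMP-binding gene cv-2 rose from 30.9, 29.4 and 27.6 CPM to 49.4, 54.2 and 66.2 CPM (0.95 ± 0.12, adjusted p = 0.000456) and held without each library. Both groups of cv-2 were apart, and the day 5 control held 64.9 to 69.2 CPM. The Collier gene kn, which patterns the centre of the wing, rose from 17.5, 18.1 and 17.6 CPM to 43.5, 38.5 and 47.5 CPM (1.29 ± 0.30, adjusted p = 0.0199), a call lost without day 5 replicate 2 or 3 or day 9 replicate 3 (up to 0.082). The Notch target gene E(spl)mgamma-HLH fell by 1.36 ± 0.27 (adjusted p = 0.0103) and lost its call without day 9 replicate 3 (0.0507), while mam, kuz and Psn, which act in Notch signalling, rose by 0.53, 0.33 and 0.25. The calls of mam, Psn and kuz were lost without day 5 replicate 2 or 3 or day 9 replicate 3 (up to 0.093, 0.125 and 0.141), that of Psn also without day 9 replicate 1, and that of kuz without each library.

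Of 16 pouch and hinge selectors (12.5% called, against 6.89% of all genes), dve rose (0.49 ± 0.13, adjusted p = 0.0325, lost without each library, up to 0.136) and vg fell. Of 13 notum genes (15.4% called), the paired-box genes eyg (0.46 ± 0.09, adjusted p = 0.00955) and toe (0.68 ± 0.16, adjusted p = 0.0194) rose. The call of eyg was lost without day 5 replicate 3 (0.0597) and that of toe without replicate 2 or 3 of either age (up to 0.0905). The pouch gene nub was at 329, 311 and 309 CPM on day 5 and 330, 367 and 365 CPM on day 9 and did not pass (0.16 ± 0.17, adjusted p = 0.585).

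Genes for DNA replication and division were mostly lower on day 9 by small log2 fold changes. Of 29 replication genes tested, 28 had a negative log2 fold change, against 52.6% of all genes, the median was -0.201, and 2 fell (6.9%, where 2.7% of all genes fell). These were the helicase subunit genes Mcm2 (-0.27 ± 0.07, adjusted p = 0.0427) and dpa (-0.29 ± 0.07, adjusted p = 0.0311). Of 31 mitosis genes, 27 were negative, the median was -0.138 and 4 fell (12.9%). The kinesin gene sub went from 79.4, 81.6 and 91.5 CPM to 67.5, 62.3 and 63.5 CPM (-0.39 ± 0.08, adjusted p = 0.00956), with the groups apart. Cdk1 fell by 0.31 ± 0.08 (adjusted p = 0.031). The call of sub was lost without day 5 replicate 3 (0.0616), that of Mcm2 without each library (up to 0.145), and those of dpa and Cdk1 without each but day 5 replicate 1 (up to 0.135).

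Genes for protein synthesis, protein turnover and respiration had negative medians of similar size. The mitochondrial ribosomal protein genes had a median of -0.213, with 71 of 72 tested members negative and 9 called as falls (12.5%, where 2.7% of all genes fell). Respiratory chain and ATP synthase genes had a median of -0.22, with 66 of 68 negative and 11 falls (16.2%). Proteasome subunit genes had a median of -0.169, with 32 of 32 negative and 3 falls (9.38%). Cytosolic ribosomal protein genes had a median of -0.125, with 76 of 86 negative and 5 falls (5.81%). The cytochrome oxidase subunit gene COX7C was at 71.3, 86.7 and 88.0 CPM and then 60.1, 55.4 and 56.5 CPM (-0.52 ± 0.09, adjusted p = 0.00609), apart and past the threshold without each library. RpS3A, at 2880, 3203 and 3470 CPM and then 2376, 2417 and 2451 CPM, fell by 0.40 ± 0.08 (adjusted p = 0.00803) and lost its call without day 5 replicate 3 (0.0527). Without day 5 replicate 3 the falls in the mitochondrial ribosome, proteasome and cytosolic ribosome lists numbered 0, and those in the respiratory list 1. Without day 5 replicate 2 they numbered 1, 0, 1 and 2 in the same order of lists, without day 9 replicate 2 they numbered 0, 0, 1 and 1, and without day 9 replicate 3 they numbered 2, 1, 1 and 2. The medians kept their sign without each library in turn, with the cytosolic ribosome median between -0.17 and -0.08.

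Of 14 Xrp1 and stress response genes, Gadd45 rose and GstE6 fell, of 13 cell death genes Strica rose, and of 12 immune response genes TotA and PGRP-LC rose, against rises in 4.19% and falls in 2.7% of all genes. Gadd45, a stress-induced gene, rose from 12.3, 9.28 and 9.38 CPM to 27.3, 16.5 and 21.7 CPM (1.08 ± 0.21, adjusted p = 0.00927) and lost its call without day 5 replicate 3 (0.0578). The pattern recognition receptor gene PGRP-LC rose from 2.92, 4.46 and 3.21 CPM to 14.1, 13.0 and 12.3 CPM (1.90 ± 0.28, adjusted p = 0.00144) and held without each library. The metalloprotease inhibitor gene Timp rose by 0.98 ± 0.16 (adjusted p = 0.0031) and held likewise. The caspase gene Strica rose by 0.64 ± 0.15 (adjusted p = 0.0224), a call lost without day 5 replicate 1 or 2 or day 9 replicate 2 or 3 (up to 0.0961). The cell death gene hid was at 112, 94.6 and 102 CPM and then 143, 170 and 162 CPM, apart but past no threshold (0.62 ± 0.19, adjusted p = 0.0597). All 15 heat shock genes tested had a positive log2 fold change, with a median of 0.874, and 0 passed in edgeR over all 18 libraries or in DESeq2. With the compared libraries alone, 9 passed. Of the 15, 10 were higher on day 9 without overlap, where 17.5% of all genes were. The list summed to 4280, 5784 and 4118 CPM on day 5 and 6852, 5921 and 6195 CPM on day 9. The control sums were 19980, 12030 and 6090 CPM, with Hsp68 at 2501, 612 and 6.20 CPM there. In glycolysis, ImpL3, which encodes lactate dehydrogenase, was at 10.5, 61.1 and 81.7 CPM on day 9, so that replicate 1 lay in the day 5 range of 7.05 to 14.2 CPM (2.34 ± 0.63, adjusted p = 0.037), and its call held only without day 9 replicate 1 (up to 0.143 otherwise).

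**Figure D3:**
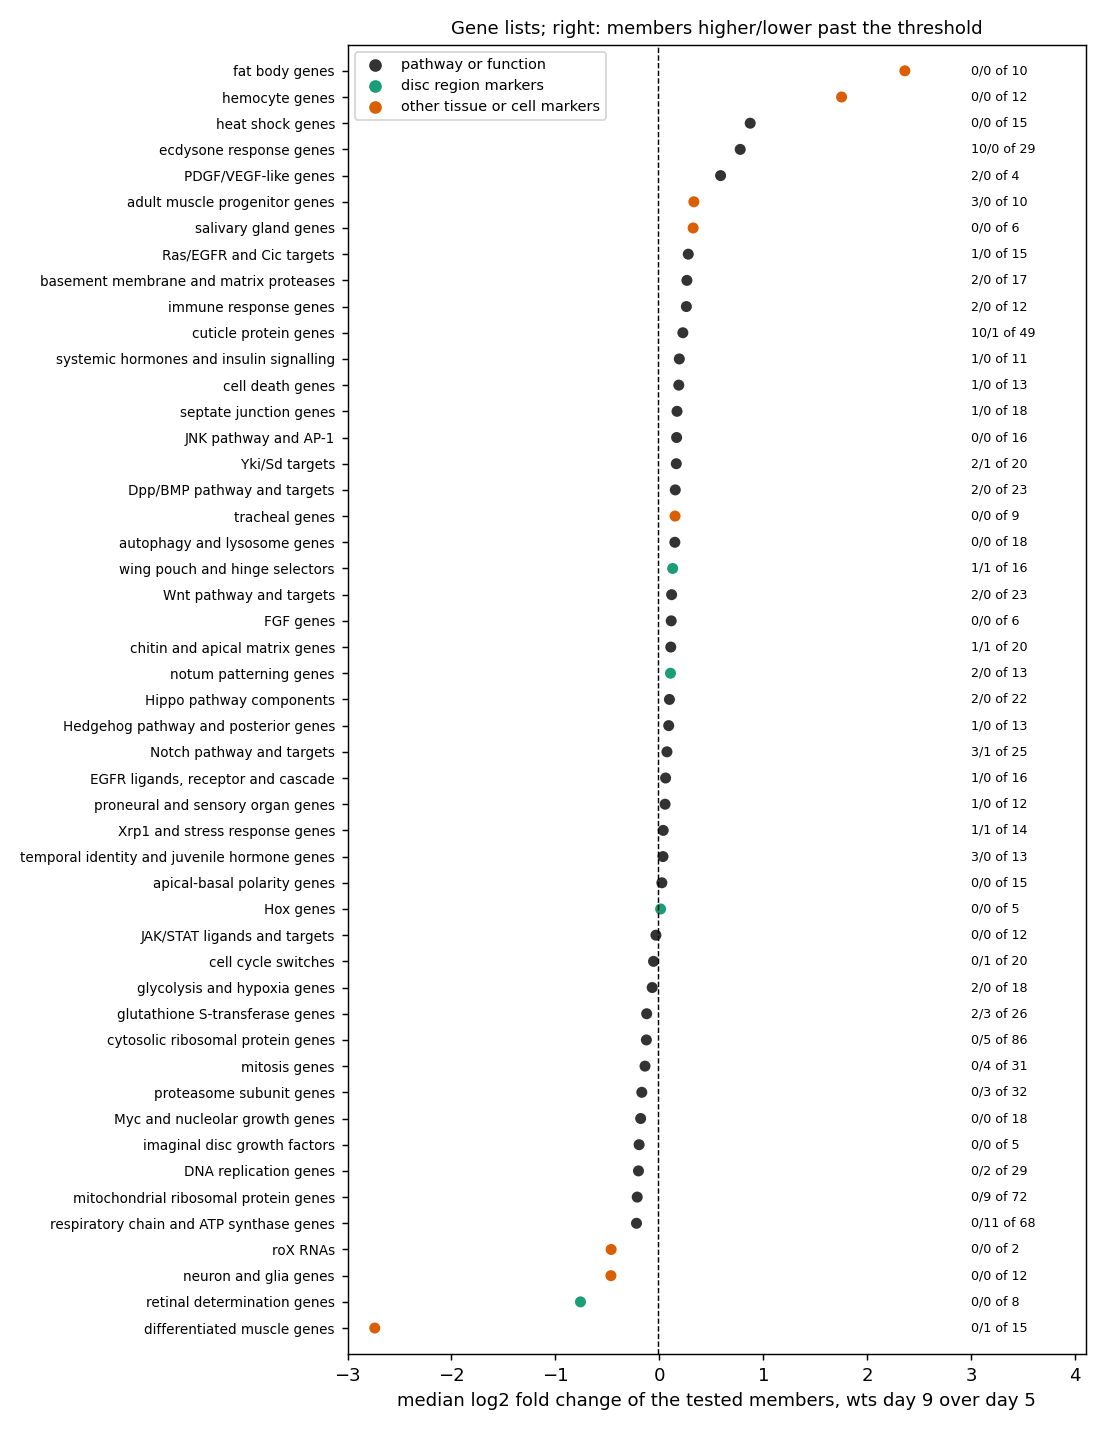
Median log2 fold change of wts day 9 over day 5 for each gene list, with the median over all genes as a dashed line. The numbers at the right are the members that rose and fell out of those tested, such as 10 and 0 of 29 for the ecdysone response genes.

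Markers of tissues that lie on or near the disc differed between the ages beside these changes. Of 12 hemocyte genes tested, 11 were higher on day 9, with a median of 1.753, 9 without overlap, where 17.5% of all genes were higher without overlap. None passed in edgeR over all 18 libraries, 3 passed in DESeq2 and 9 with the compared libraries alone. The summed hemocyte level was 71.5 to 94.6 CPM on day 5 and 116 to 201 CPM on day 9, and 71.0 to 199 CPM in the control. The phagocytosis receptor gene eater was at 1.20, 0.779 and 0.518 CPM and then 7.70, 6.55 and 6.07 CPM (3.01 ± 1.04, adjusted p = 0.0891). Differentiated muscle genes went the other way. Of 15, 13 were lower on day 9, 11 without overlap, where 16.9% of all genes were lower without overlap. The median was -2.738. In edgeR with TMM scaling over all 18 libraries, only the myosin gene Mhc fell past the threshold. The falls numbered 11 with the compared libraries alone, 7 in DESeq2, 5 with the replicate block and 0 with robust estimation. Mhc was at 24.1, 44.0 and 15.1 CPM and then 4.04, 0.728 and 0.674 CPM (-3.94 ± 1.11, adjusted p = 0.0448), a call lost without each library (up to 0.142). The summed differentiated muscle level was 1100 to 1290 CPM and then 1050 to 1080 CPM, and 1260 to 2200 CPM in the control. Act79B was at 0 in all 6 wts libraries. Tracheal genes summed to 3570 to 4080 CPM on day 5 and 4190 to 4640 CPM on day 9, without overlap. The day 5 control held 2450 to 2820 CPM. Of the 9 tracheal members, 8 were higher on day 9. None passed in edgeR over all 18 libraries, 1 passed in DESeq2 and 2 with the compared libraries alone.

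Adult muscle progenitor genes, of the cells attached to the notum, rose in 3 of 10 members, where 4.19% of all genes rose. Ama, an immunoglobulin-domain protein gene, went from 101, 111 and 76.9 CPM to 162, 156 and 192 CPM (0.82 ± 0.17, adjusted p = 0.0125), and the muscle factor gene Mef2 rose by 0.32 ± 0.06 (adjusted p = 0.0103). The RNA-binding gene how rose by 0.49 ± 0.11 (adjusted p = 0.0212). The summed level was 626 to 701 CPM on day 5 and 866 to 922 CPM on day 9, without overlap. The day 5 control held 853 to 921 CPM, so the day 9 sums lay near the control and the day 5 wts sums below it. Without day 5 replicate 3 none of the list passed (adjusted p of 0.0717 for Ama, 0.0621 for Mef2 and 0.067 for how). The call of Ama was also lost without day 9 replicate 3, and that of how without day 5 replicate 2 or day 9 replicate 1 or 3 (up to 0.0959). Fat body genes were uneven: Fbp1 was at 3.13, 75.8 and 9.77 CPM on day 9, and 0 members passed in edgeR over all 18 libraries, while 1 passed with the compared libraries alone. The part of these tissues in the other results was not tested.

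**Figure D4:**
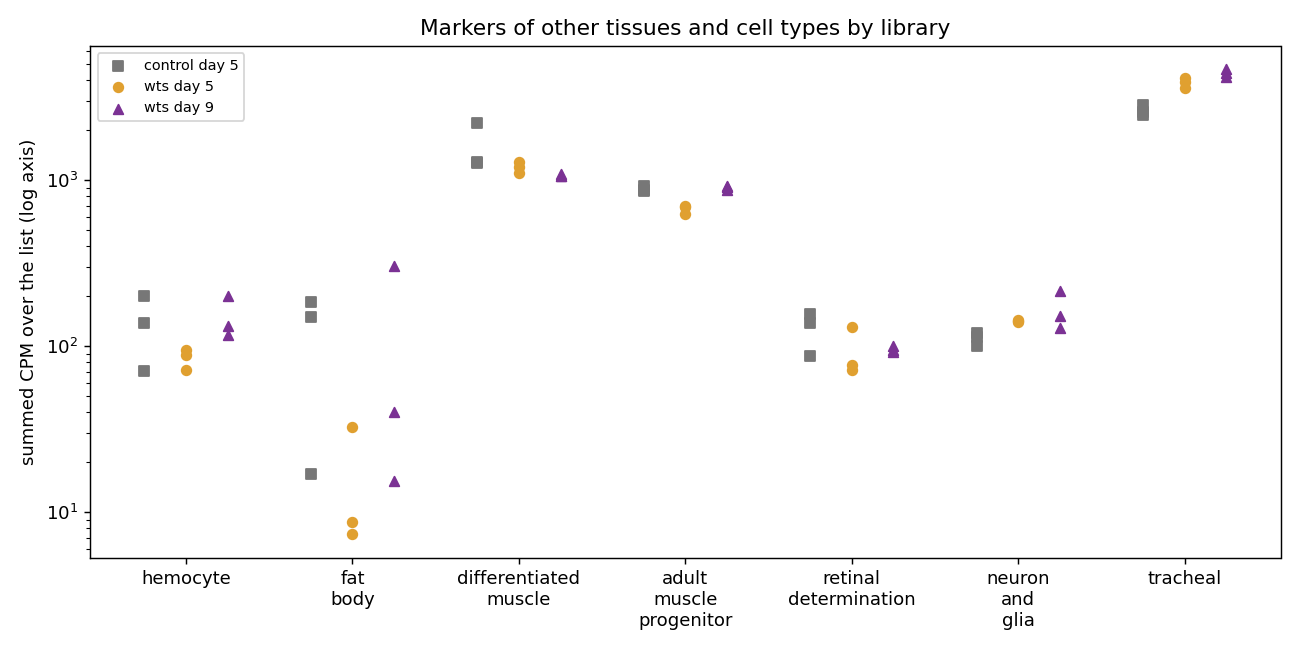
Summed CPM (log axis) of marker lists for other tissues and cell types, one point per library of control day 5, wts day 5 and wts day 9. Hemocyte, adult muscle progenitor and tracheal sums are higher in every day 9 library than in every day 5 library, and the fat body sum of 302 CPM marks day 9 replicate 2.

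The same ages were compared in cic wts discs, which share no library with the wts comparison. Some cic wts day 5 libraries stood apart. Replicate 1 held hemocyte genes at 1640 CPM, against 87.1 and 116 CPM in the others, and replicate 2 held fat body genes at 701 CPM, against 8.84 and 6.5 CPM. In this comparison 955 genes (10.6%) passed, 546 higher (6.06%) and 409 lower (4.54%) on day 9. The count was 386 without day 5 replicate 1, 722 without day 5 replicate 2, 241 without day 9 replicate 1 and 415 without day 9 replicate 2. Of the 620 genes called in wts discs, 302 were called in cic wts discs, which is 48.7% of the wts calls and 31.6% of the cic wts calls, and 301 of them moved in the same direction. The 1 exception, named after its values were seen, was the receptor kinase gene Ret, with 1.02 in wts and -0.93 in cic wts, and its wts call was lost without each wts library (adjusted p up to 0.135). Among the 377 rises of wts discs the cic wts log2 fold change was positive in 366 and had a median of 0.51. Among the 243 falls it was negative in 234 and had a median of -0.25. Over all 9004 genes it was positive in 4355 and negative in 4646. Some list medians had the other sign in cic wts discs, at -1.368 for hemocyte, -0.183 for heat shock and 0.01 for cytosolic ribosomal protein genes. Others kept it, at 0.498 for ecdysone response and -3.924 for differentiated muscle genes. Blimp-1, ImpE2, Ef1alpha100E, Cht5, CG16884 and CG16885 passed in both, with cic wts log2 fold changes of 6.41, 4.29, 3.21, 2.03, -5.36 and -5.20.

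The difference between the ages of wts and cic wts discs was then tested for each gene as an interaction. No gene passed in edgeR after adjustment, with 593 genes at an unadjusted p under 0.05, and 33 genes passed in DESeq2. On simulated data the edgeR test of the difference recovered 25.4% of 1.5-fold, 55.2% of 2-fold and 77.3% of 4-fold changes. Of its calls there, 7.08% were false. The absence of calls therefore does not show that the ages differed equally in both genotypes. The smallest adjusted p in edgeR was 0.127, shared by vn, CG10089, bnl and kek2, of which kek2 and CG10089 were named after their values were seen. The FGF ligand gene bnl was at 8.90, 9.57 and 8.39 CPM and then 12.1, 13.0 and 12.9 CPM in wts discs, a log2 fold change of 0.50, and had one of 2.57 in cic wts discs. The Kekkon family gene kek2 was at 0.781, 0.567 and 0.881 CPM and then 3.45, 3.28 and 2.60 CPM in wts discs (2.05 ± 0.32, adjusted p = 0.00217), against -0.55 in cic wts discs. Ilp8 had 0.36 in wts discs and 1.26 in cic wts discs, where it passed (adjusted p = 0.0336). In edgeR without the replicate block the difference itself passed for none of these genes. With the block it passed for bnl (adjusted p = 0.0149) and vn (0.042), and in DESeq2 for vn and bnl (9.21e-05 each), CG10089 (0.00182), kek2 (0.00672) and Ret (0.0223), but not for Ilp8 (0.98).

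**Figure D5:**
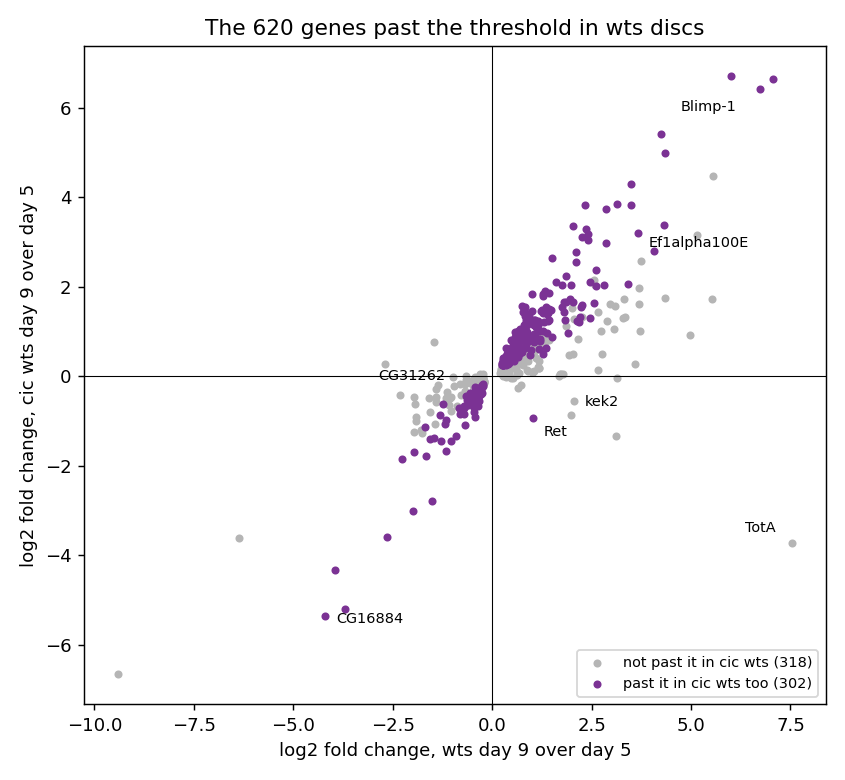
Log2 fold change of day 9 over day 5 in wts discs (horizontal) against cic wts discs (vertical) for the 620 genes past the threshold in wts discs. Purple points are the 302 also past it in cic wts discs, nearly all in the quadrants of equal sign.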

How the data were processed

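Processed counts of reads per gene were deposited by the authors for 18 RNA-seq libraries. Bowtie2, TopHat2, HTSeq, DESeq2 and the build dm6 are named in the submitters' processing notes, with no version, role or strand option stated there. Reads of overlapping and antisense genes therefore cannot be told apart. Libraries were grouped by the labels. Genes were filtered with filterByExpr and scaled with TMM, and 9004 of 17373 genes were fitted in edgeR 4.0.16 (R 4.3.3) with a quasi-likelihood model of 6 groups over all 18 libraries, which share the estimate of the spread. Contrasts were wts day 9 against day 5, the same in cic wts, and their difference, with Benjamini-Hochberg adjustment and a threshold of 0.05. Log2 fold changes are given with their standard errors (SE). Coordinates come from a RefSeq table of release 6, matched by symbol or synonym. Gene lists are described by counts and medians, with no test. Named genes are cic and wts, list members, and, among called genes whose libraries did not overlap and that reached 5 CPM in the higher group, the 12 with the highest and the 12 with the lowest fold change. Members and lists were chosen with earlier results of these data known. The fit was tested on simulated data. For the ages of wts discs it recovered 59.7% of 1.5-fold, 67.2% of 2-fold and 89.4% of 4-fold changes. False calls made up 6.49% of the calls there, above the threshold of 0.05. Alternatives were RLE and total-count scaling, no filter, DESeq2 1.42.0, a replicate block, the compared libraries alone, a test against a change of 1.5 times, and leaving out each library. Leaving out 2 libraries together and robust estimation were chosen after seeing the data.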

Additional observations from a re-analysis of the deposited data

How the results depend on the processing

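The 620 genes called between the ages of wts discs (377 up, 243 down) became 1082 in DESeq2 (684 and 398), 978 with the compared libraries alone (666 up) and 43 in a test against a change of 1.5 times (35 and 8). Without the filter on low counts 143 genes fell. Leaving out the libraries with eye disc and fat body genes together, chosen after seeing the data, left 184 (127 and 57). Leaving out single libraries gave 122 to 493 calls, 76 to 277 rises and 46 to 216 falls. In cic wts discs the 955 calls became 628 with the compared libraries alone (259 down), DESeq2 called 654 down, and single omissions gave 241 to 901 calls, 167 to 513 rises and 74 to 388 falls. The difference between genotypes gave 33 calls in DESeq2 (27 and 6), and 0 in every fit without a library. RLE, total-count scaling and robust estimation, the last chosen after seeing the data, kept the wts counts over all genes within 1.5 times. The median over all genes moved from -0.016 to -0.004 at most. Single lists moved more, with 6 ecdysone rises under robust estimation in place of 10. Named genes and list members kept their direction wherever they were called. Whether the replicate numbers pair the wts libraries was not tested. Same-numbered ones deviated with correlations of -0.125, -0.107 and -0.00947, and differently numbered ones with -0.1 to 0.156. In cic wts discs the same-numbered correlations were 0.0679, 0.0636 and 0.0505, against -0.0664 to 0.00355 for differently numbered libraries. These cic wts values were small but higher for equal numbers, and whether the numbers pair those libraries was not tested. With the replicate block the calls were 631 in wts (382 and 249), 965 in cic wts (557 and 408) and 3 in the difference (2 and 1). Fits without a library rest on fewer samples, and genes at a fraction of 1 CPM rest on few counts.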

Other observations

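Of 18 septate junction genes, which build the paracellular barrier, 1 was called (5.56%, against 6.89% of all genes). The immunoglobulin gene Lac rose from 328, 314 and 305 CPM to 386, 371 and 391 CPM without overlap. Its log2 fold change was 0.28 ± 0.07 (adjusted p = 0.0344 in edgeR). The list had a median of 0.17 with 10 members higher without overlap, where 17.5% of all genes were. The call of Lac held only without day 5 replicate 1 (adjusted p up to 0.124 otherwise). Of 15 apical-basal polarity genes and 18 autophagy and lysosome genes, none passed in edgeR with TMM scaling over all 18 libraries, with medians of 0.024 and 0.149. With the compared libraries alone 1 polarity gene and 2 autophagy genes passed, and in DESeq2 1 and 3. Among them Atg18a (0.22 ± 0.07, adjusted p = 0.0564) was past the threshold in edgeR with RLE scaling (0.0445), total-count scaling (0.0387) and the compared libraries alone (0.0497). In the matrix list of 17 (11.8% called, against 6.89% of all genes), the laminin gene LanB2 rose by 0.34 ± 0.09 (adjusted p = 0.0365) beside Timp. The call of LanB2 too held only without day 5 replicate 1 (up to 0.152 otherwise). Of 18 growth genes around Myc and the nucleolus, none passed in wts discs in that fit (2 rises and 1 fall in DESeq2) and 16 were negative (median -0.18), while 8 were called as lower on day 9 in cic wts discs, and the difference between the genotypes passed for no member in edgeR.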
